A study of Drosophila melanogaster with 2 samples.

Results

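The cytoplasmic ribosomal protein genes of Drosophila melanogaster were examined as binding targets of the zinc finger protein Dati in embryos. Members were the protein-coding genes of the Ensembl annotation whose symbols begin with RpL (large subunit) or RpS (small subunit), which gave 92 of 13968 protein-coding genes, 54 of them large subunit genes and 38 small subunit genes. The genes were chosen by symbol, so the list holds duplicated copies and genes with -like symbols, and leaves out ribosomal proteins with other symbols. Chromatin immunoprecipitation and sequencing (ChIP-seq) had been carried out with an antibody against GFP on whole embryos, 8 to 24 hours old, of the transgenic strain dati-GFP, in which a dati-eGFP fusion is expressed. There was 1 group of 2 replicates, labelled as biological ones, both of that strain and age, and no second genotype, stage or treatment. Whole embryos pool all cell types, so a signal cannot be assigned to one of them. The lists give peaks and no reads, which leaves library depth unknown, and no interval is given for a signal. With 1 group and no counts, every comparison here is a description of numbers and medians, without a test.

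The cytoplasmic ribosome is built from a large and a small subunit, each an assembly of ribosomal RNA with many different proteins that are needed in near equal amounts. Growing and dividing cells transcribe the genes of these proteins at very high levels, and flies with a single working copy of many of them show the Minute phenotype of delayed growth and short bristles. Many ribosomal protein genes of Drosophila start transcription within a polypyrimidine initiator (TCT) instead of the usual initiator, and several carry a DNA replication-related element (DRE), the site of the factor Dref, or a Motif 1 site, bound by M1BP.

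The stretches of DNA around the start sites show what the bound and unbound genes look like. The bases below run 5′ to 3′ on the gene's strand, from 60 bases before the RefSeq gene 5′ end to 15 bases from it onward, and were read from the Release 6 assembly (build dm6). Capitals mark CTTT, the core of the TCT initiator, where its C lies within 5 bases of the start site, and the DRE, TATCGATA. The first 6 are bound genes of high signal: RpS27 (chr3R:25247500-25247574, minus strand), RpL7 (chr2L:10200944-10201018, plus strand), RpS28b (chrX:9554563-9554637, plus strand), RpL14 (chr3L:8600946-8601020, plus strand), RpL34b (chr3R:9401212-9401286, minus strand) and RpL28 (chr3L:3222946-3223020, minus strand).
RpS27: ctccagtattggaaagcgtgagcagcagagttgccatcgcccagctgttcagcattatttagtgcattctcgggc
RpL7: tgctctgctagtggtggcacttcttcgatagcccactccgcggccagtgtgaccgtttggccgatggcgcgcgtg
RpS28b: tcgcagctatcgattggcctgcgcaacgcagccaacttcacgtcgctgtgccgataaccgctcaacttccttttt
RpL14: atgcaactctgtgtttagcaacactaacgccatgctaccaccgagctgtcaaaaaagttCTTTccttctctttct
RpL34b: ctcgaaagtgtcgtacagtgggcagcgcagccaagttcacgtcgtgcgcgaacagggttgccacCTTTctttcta
RpL28: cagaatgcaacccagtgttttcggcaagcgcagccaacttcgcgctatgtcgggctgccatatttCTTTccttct
The next 5 are unbound genes: RpL13A (chr3R:5624414-5624488, plus strand), which had the highest signal among them, RpL34a (chr3R:26059253-26059327, minus strand) and RpS28a (chr3R:30022634-30022708, minus strand), which are the unbound copies of RpL34b and RpS28b, and RpS3 (chr3R:23358752-23358826, plus strand) and RpL40 (chr2L:4227639-4227713, plus strand), which carry CTTT at the start. RpL13A carries it as well.
RpL13A: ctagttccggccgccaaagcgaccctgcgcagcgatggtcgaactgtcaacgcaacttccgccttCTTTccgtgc
RpL34a: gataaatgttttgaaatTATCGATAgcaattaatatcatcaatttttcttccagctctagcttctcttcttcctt
RpS28a: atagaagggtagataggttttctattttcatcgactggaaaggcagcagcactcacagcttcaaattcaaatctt
RpS3: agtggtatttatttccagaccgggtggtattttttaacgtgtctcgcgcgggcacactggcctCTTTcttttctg
RpL40: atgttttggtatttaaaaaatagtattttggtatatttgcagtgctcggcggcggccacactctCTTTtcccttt
The last is RpS3A (chr4:67193-67267, minus strand), which had no place in any list within 1000 bp and carries CTTT.
RpS3A: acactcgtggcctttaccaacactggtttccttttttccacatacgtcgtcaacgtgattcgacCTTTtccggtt

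A gene was called bound when a peak summit of the optimal set, the thresholded set made by the authors from the pooled reads, lay within 1000 bp of one of its annotated start sites. By this rule 46 of the 92 ribosomal protein genes were bound (50%), against 9.5% of all 13968 protein-coding genes. The subunits did not differ in this share: 27 of 54 large subunit genes and 19 of 38 small subunit genes were bound, 50% of each. In the conservative set, which pairs the replicates, 45 members were bound (48.9%), against 8.76% of all genes. Both thresholded sets held 41 of the members (44.6%), against 8.08% of all genes. RpL9, RpL7A, RpL3, RpS12 and RpS5b were bound in the optimal but not the conservative set, and 4 members, RpS7 and RpL10Ab among them, in the conservative but not the optimal set.

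Each replicate alone gave fewer calls. The thresholded set of replicate 1 bound 28 members (30.4%), against 6.46% of all genes, and that of replicate 2 bound 33 members (35.9%), against 4.97% of all genes. Both of these sets held 24 members (26.1%), 16 of the large and 8 of the small subunit, against 4.04% of all genes. Of the 46 members bound in the optimal set, 4 were in the set of replicate 1 only, 7 in that of replicate 2 only and 11 in neither. The share of bound members was therefore lower in either library alone than in the pooled reads, and above that of all genes in each set.

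The signal value of a peak is the authors' own and has no stated unit; it ranks peaks within a list. The bound members had a median signal of 92.8 in the optimal set (lowest 49.6, highest 258), against 86.2 for the other 1281 bound genes (lowest 26.8, highest 936). The bound members ranked from 80th (RpS27) to 1846th (RpS6) of the 1915 optimal peaks. They were thus spread through most of the list without reaching its very top. Among the 957 optimal peaks of highest signal, 30 members were bound (32.6%), 19 of the large and 11 of the small subunit, against 5.49% of all genes. Bound large subunit genes had a median of 105 (57.8 to 245) and bound small subunit genes a median of 83.2 (49.6 to 258), so the ranges of the subunits overlapped almost wholly. Among unbound members, 40 had a nearby place in the pooled ranked list, with a median signal of 33.4 (12.8 to 125), against 28.7 for the other unbound genes. Of these, 6 lay above the lowest bound member.

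**Figure D1:**
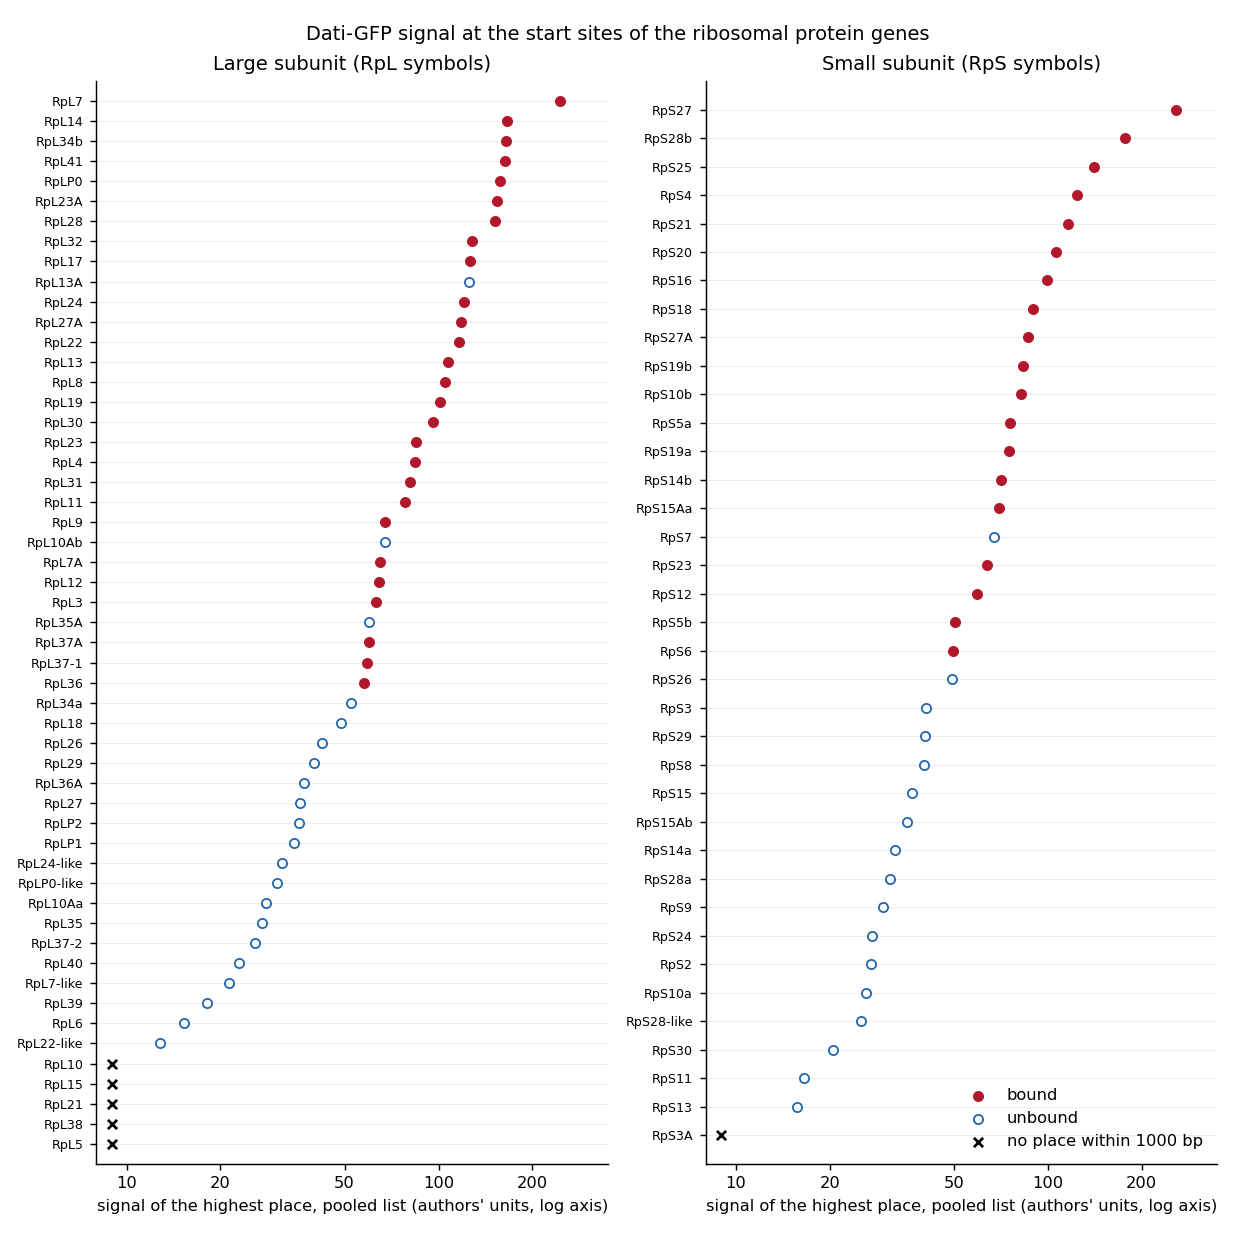
Highest signal in the pooled ranked list near a start site of the gene (authors' units, log axis), for large subunit genes (left) and small subunit genes (right), without 2 unbound genes that are not drawn. Filled points are bound, open points unbound, and crosses mark the 6 genes with no place, drawn at the left edge without a value; RpS27 and RpL7 stand highest and RpL13A is the open point furthest to the right.

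The strongest signal among the members was at RpS27, which encodes a protein of the small subunit. RpS27 had a signal of 106 in replicate 1, 145 in replicate 2 and 258 in the optimal set, where it ranked 80th of 1915 peaks. RpL7, of the large subunit, had 103 in replicate 1, 139 in replicate 2 and 245 in the optimal set. Both genes were high in both libraries, and their summits lay 12 bp upstream and 14 bp downstream of the start site. The start site of another gene on the opposite strand lay near each of them: that of Nup37, a nuclear pore gene, 144 bp from that of RpS27, and that of Ripalpha, a gene for a replication protein A interacting protein, 30 bp from that of RpL7.

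RpS28b, a small subunit gene, had 92.7 in replicate 1, 77.9 in replicate 2 and 177 in the optimal set. RpL14 had 68.1, 92.1 and 165 in the same order, and RpL34b had 95.0, 67.9 and 165. These genes did not take the same order in the libraries, since RpL14 was higher in replicate 2 and RpS28b and RpL34b were higher in replicate 1. RpL41, which encodes the smallest ribosomal protein, had 163 in the optimal set, but its summit lay 106 bp upstream and nearer to the start site of the sodium channel gene NaCP60E. RpLP0, whose protein anchors the acidic stalk of the large subunit, had 157, with 79.4 in replicate 1 and 81.5 in replicate 2. RpL23A had 154 and RpL28 had 152, both with more signal in replicate 2 (95.2 and 92.2) than in replicate 1 (60.9 and 58.5).

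The other members among the 15 of highest signal were RpS25 (140), RpL32 (128), RpL17 (126), RpS4 (124), RpL24 (121) and RpL27A (118). Large subunit genes made up the greater part of this group, as they do of all members. RpL32, which is widely used as a reference gene in expression studies of flies, had a summit 208 bp upstream, nearer to the start site of CG7943.

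The bound members of lowest signal were RpS6 (49.6), RpS5b (50.4), RpL36 (57.8), RpL37-1 (58.8) and RpS12 (59.2). RpS6 encodes the small subunit protein that is phosphorylated by S6 kinase. It had 30.0 in replicate 1 and 27.9 in replicate 2, and its peak was also the highest within 1000 bp of the start of bys, a gene for ribosome assembly. RpL36 likewise shared its peak with Mybbp1A, and neither RpL36 nor RpS6 passed the threshold in either replicate alone.

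Unbound members of high signal were RpL13A (125), RpS7 (67.3), RpL10Ab (67.1), RpL35A (59.8), RpL34a (52.5), RpS26 (49.2), RpL18 (48.7) and RpL26 (42.4) in the pooled ranked list. RpL13A stood apart from the rest: it had 67.3 in replicate 1 and 51.4 in replicate 2, its summit lay 42 bp upstream of its start site, and its score reached the upper limit of 1000. Its place was absent from all 4 thresholded sets, and it was 1 of 89 pooled places with a score at or above 830, the lowest of the optimal set, that the set does not hold. By signal alone RpL13A would have ranked among the 15 strongest members. RpL35A had no place in the list of replicate 1, and 45.3 in replicate 2, where it passed that replicate's own threshold.

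The bound members differed most clearly from other bound genes in where the summit lay. The median summit position of bound members was -22.5 bp, that is, upstream of the gene's nearest annotated start site, with quartiles at -43.5 and -9.25 bp. The other bound genes had a median of -146 bp, with quartiles at -303 and -47 bp. The summit was at most 25 bp from the start site in 26 of 46 bound members (56.5%), against 48 of 1281 other bound genes (3.75%), and at most 50 bp from it in 35 of 46 (76.1%), against 101 of 1281 (7.88%). Most summits of both groups lay upstream, in 37 of 46 bound members and 1024 of 1281 other bound genes. The median was -22 bp in large subunit genes and -23 bp in small subunit genes.

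**Figure D2:**
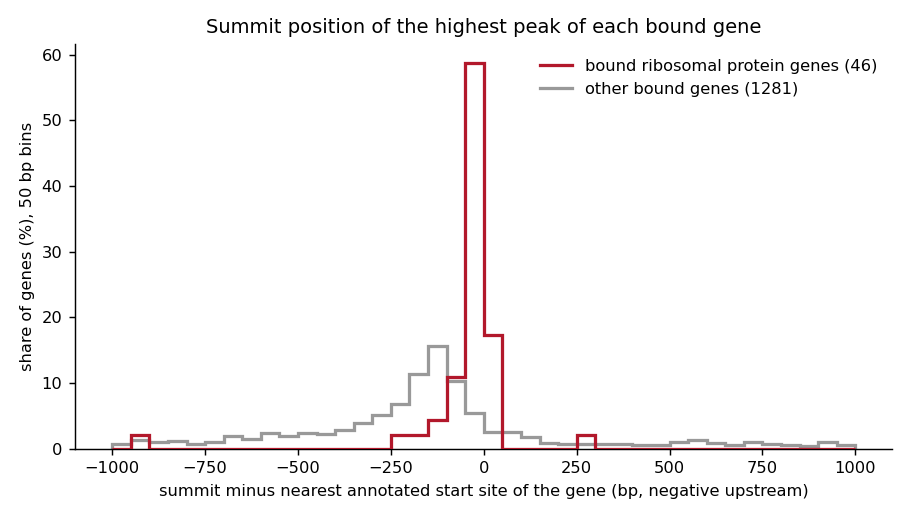
Share of genes (%) by the position of the summit of their highest optimal peak relative to the nearest annotated start site of the gene, in 50 bp bins, negative upstream, for the 46 bound ribosomal protein genes and the 1281 other bound genes. The bound ribosomal protein genes form a narrow column in the bins next to the start site, while the other bound genes spread further upstream.

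The same pattern was seen where only genes with the nearest start site to the summit were counted. That held for 42 of the 46 bound members, of which 35 had the summit within 50 bp (83.3%), against 99 of 914 other bound genes (10.8%). The exceptions were RpL41 and RpL32, described above, RpS20, whose summit lay 182 bp upstream and nearest to CG17271, and RpS19b, whose summit lay 948 bp upstream and nearest to CG5854. RpS10b had its summit on the annotated start site itself. Unbound members, which the threshold did not call, also had their best place close to the start site more often than other unbound genes: within 50 bp in 13 of 40 (32.5%), against 773 of 11649 (6.64%).

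Many start sites of these genes lie close to another gene. For 31 of the 46 bound members the same peak was also the highest within 1000 bp of a start site of some other protein-coding gene. Another start site lay within 500 bp of that of 22 of 46 bound members (47.8%) and of 15 of 46 unbound members (32.6%). The same shares were not counted over all genes or over other bound genes, so they cannot be called particular to these members. RpL13 shared its peak, with a signal of 108, with Dref, the gene of the factor that binds the DRE. The summit lay 27 bp upstream of RpL13 and 57 bp upstream of Dref.

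Replicate 2 gave relatively more signal than replicate 1 at the bound members. The ratio of replicate 2 over replicate 1 had a median of 1.19 over the 46 bound members and of 0.864 over the 1258 other bound genes with a place in both lists. The signal was higher in replicate 2 in 28 of 46 bound members (60.9%), against 419 of 1258 other bound genes (33.3%). The median signal of the bound members was 52.5 in replicate 2 and 46.6 in replicate 1. The ratio was 1.19 in both bound large and bound small subunit genes, and 0.930 over the 34 unbound members with a place in both lists. The lists of the replicates were deposited separately on scales that are not stated, and 2 libraries allow no test of the ratio.

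**Figure D3:**
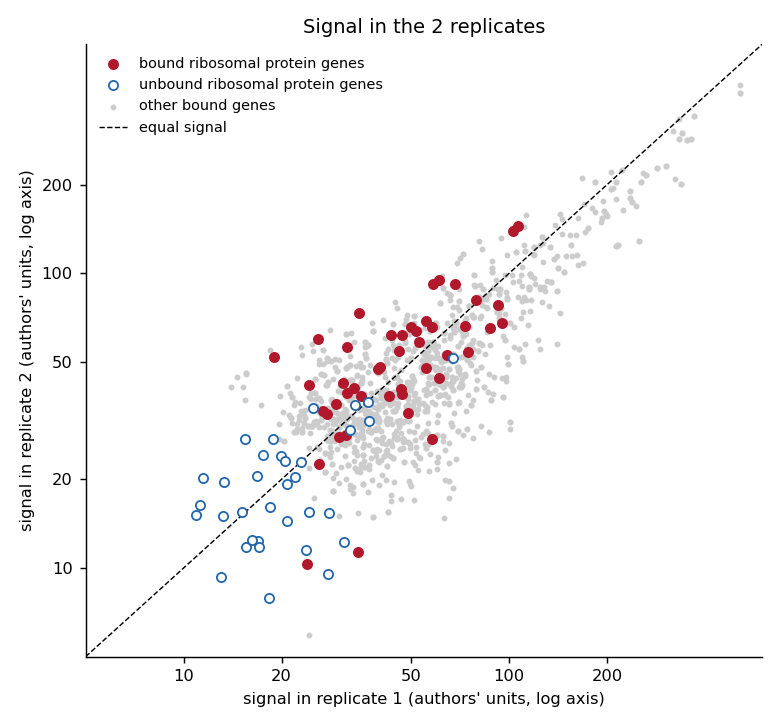
Signal in replicate 2 against signal in replicate 1 (authors' units, both axes log) for bound ribosomal protein genes (filled), unbound ribosomal protein genes (open) and other bound genes (small grey points). The dashed line marks equal signal; 28 of 46 filled points lie above it, and most grey points lie below it.

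The bound members that differed most between the replicates were all of the large subunit. RpL3, whose protein forms part of the peptidyl transferase region, had 34.4 in replicate 1 and 11.3 in replicate 2, a log2 ratio of -1.60. RpL7A had 18.9 in replicate 1 and 52.1 in replicate 2, a log2 ratio of 1.46. The values of RpL9 were 23.9 in replicate 1 and 10.3 in replicate 2, with a log2 ratio of -1.22. RpL23 and RpL8 had more signal in replicate 2 (59.8 and 73.6) than in replicate 1 (25.9 and 34.5). RpL3, RpL7A and RpL9 are also 3 of the 5 bound members that the conservative set leaves out.

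Duplicated genes gave a further comparison within the list. Measured copies were found in 13 families with 27 genes, of which 14 were bound. Exactly 1 copy was bound in 10 families, both copies in 2 families and no copy in 1. In these 10 families the signal of the bound copy was between 1.98 and 11.5 times that of the highest unbound copy. The threshold acts on these same peaks, so a higher signal at the bound copy largely follows from the call itself.

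RpL7 had 245 against 21.4 for RpL7-like, and RpLP0 had 157 against 30.3 for RpLP0-like. RpL24 had 121 against 31.6 for RpL24-like, whose protein takes part in ribosome assembly. RpL22 had 116 against 12.8 for RpL22-like, a copy known for its expression in the germline. In these families the gene with the plain symbol was the bound one. The proteins of the copies were not compared, so a -like symbol need not mark a second ribosomal protein. RpL37-1 (58.8) was bound and RpL37-2 (25.9) was not.

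RpL34b had 165 against 52.5 for RpL34a, whose place lay 13 bp downstream of the start site. RpS28b had 177 against 31.3 for RpS28a and 25.2 for RpS28-like. RpS10b had 81.8 against 26.1 for RpS10a, and RpS15Aa had 70.0 against 35.3 for RpS15Ab. The copies RpS14a and RpS14b lie next to each other on the X chromosome. RpS14b had 70.8, with 42.8 in replicate 1 and 38.2 in replicate 2, against 32.5 for RpS14a, with 11.5 in replicate 1 and 20.3 in replicate 2. RpS14b was above RpS14a in both replicates. In the 2000 bases around the start site, 32.7% of the 31-base words of RpS14b and 16.4% of those of RpS14a occur more than once in the assembly, and in the 264 bases around it none do in either gene.

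The copies RpS5a (75.9) and RpS5b (50.4) were both bound. The summit of highest signal lay 14 bp upstream in RpS5a and 263 bp downstream in RpS5b. RpS5b had 2 optimal summits within 1000 bp and stayed bound with a summit distance of 250 bp. Its other summit thus lay nearer to the start site, so the copies cannot be said to differ in place. RpS19a (75.2) and RpS19b (83.2) were both bound as well, the first with a summit 54 bp upstream and the second with the distant summit given above. Neither RpL10Ab (67.1) nor RpL10Aa (28.0) was bound, although RpL10Ab passed the threshold in the conservative set.

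**Figure D4:**
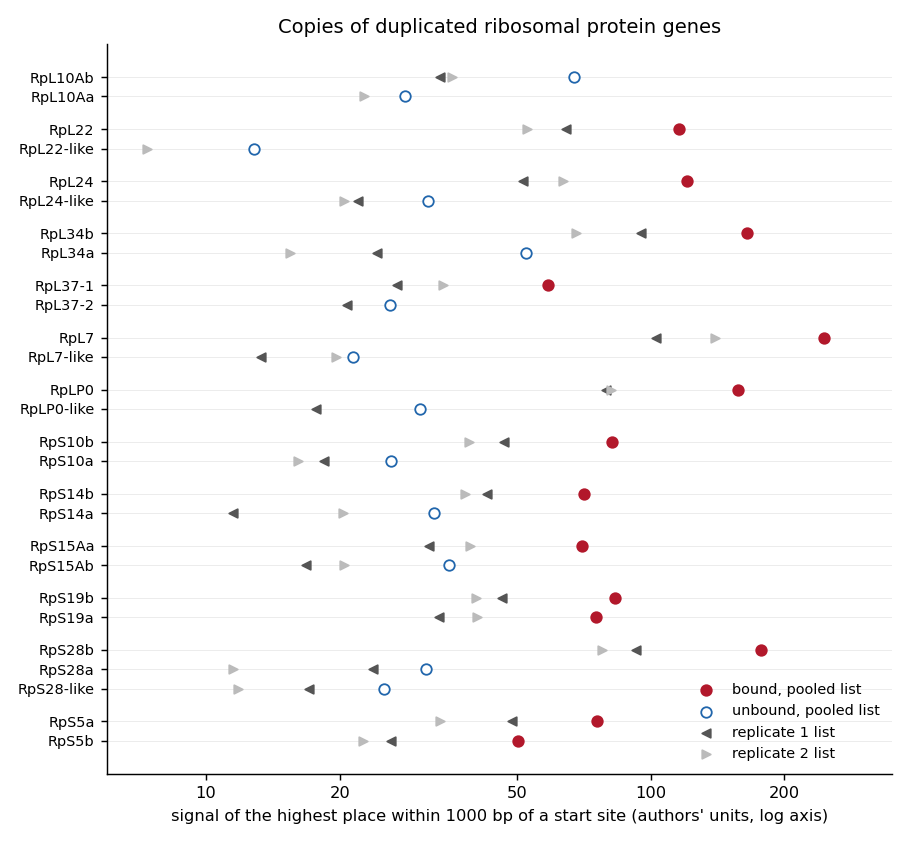
Signal of the highest place within 1000 bp of a start site (authors' units, log axis) for each copy of 13 families of duplicated ribosomal protein genes, grouped by family with any bound copy on top. Round points are the pooled list (filled bound, open unbound) and triangles are the lists of replicate 1 and replicate 2. In 10 families 1 filled point lies to the right of every open one, which largely follows from the call.

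The pooled ranked list held no place within 1000 bp for 6 members (6.52%), against 6.82% of all genes. These were RpL10, RpL15, RpL21, RpL38, RpL5 and RpS3A. RpL5 encodes the protein that carries 5S ribosomal RNA, and RpL38 and RpS3A are known Minute genes. RpL15 had a place of 17.7 and RpL21 a place of 27.8 in the list of replicate 1 only. RpS3A lies on chromosome 4, and the other 5 lie towards the centromere on their chromosome arms. RpL10 is the furthest of them from the end of the arm nearest the centromere, at 5014756 bp, and that distance was taken as a span after the values were seen, so that all 5 lie within it by choice. The span also holds RpS10b and RpL30, which were bound, and RpS26, which had a place, lies just outside it at 5070435 bp. Among all genes in the same span 25.3% had no place, against 4.68% of genes further from the centromere, and on chromosome 4 it was 71 of 80 genes. Within 1000 bases of the start site, at most 0.203% of the 31-base words of these 6 members occur more than once in the assembly.

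The bound members were unevenly spread over the chromosomes. On X, 12 of 14 members were bound (85.7%), against 8.42% of all genes on X. On the autosomal arms 2L, 2R, 3L and 3R, 9 of 19, 9 of 21, 7 of 14 and 9 of 23 members were bound, against between 9.47% and 10.4% of all genes on these arms. The unbound members on X were RpL35 and RpS14a. The median pooled signal of members with a place was 70.4 on X, against 59.7 on 2L, 40.5 on 2R, 86.1 on 3L and 52.5 on 3R. It was thus higher on X than on each autosomal arm but 3L.

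Sequence features of the promoters were counted from 250 bases before to 50 after the RefSeq gene 5′ end, which was found for all 92 members and all 13968 genes. Among 12 motifs, searched on both strands, the DRE (TATCGATA) was present in 11 of 46 bound members (23.9%) and 17 of 46 unbound members (37.0%), against 9.35% of all promoters. Its core, ATCGAT, lies within the DRE and was present in 17 bound and 21 unbound members, against 23.3% of all promoters. The Motif 1 core GGTCACACT was present in 5 bound and 4 unbound members, against 6.04% of all promoters, and its shorter form TCACAC, which lies within it, in 10 bound and 9 unbound members, against 18.1%. The letters GGTATN (Ohler motif 6) were present in 26 bound and 29 unbound members, against 36.0%. CATCNCTA (Ohler motif 7) was present in 3 bound and 6 unbound members, against 6.41%. The DRE, its core and both Ohler motifs were thus held by more unbound than bound members, and each form of Motif 1 by 1 more bound member.

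Other letters gave a mixed picture. The run TTTCTTTT, which can overlap CTTT at the start, was present in 17 bound members (37.0%) and 8 unbound members (17.4%), against 7.25% of all promoters. The A tract AAAAAA was present in 33 bound members (71.7%) and 25 unbound members (54.3%), against 50.4%. GAGAG was found in 6 bound and 10 unbound members, against 29.7%, and the E-box CAGCTG in 6 bound and 3 unbound members, against 17.6%. The E-box CACGTG was found in 4 members of each kind, against 4.20%, and TATAAA in 23 bound and 21 unbound members, against 45.8%. GAGAG and CAGCTG were thus rarer in bound and in unbound members than in all promoters in this window. From 100 bases before to 50 after the start site, CAGCTG was held by 6 of 46 bound members (13.0%) and 2 of 46 unbound members (4.35%). The bound share there was near that of all promoters, 1680 of 13968 (12.03%). In the wider window 5 of 19 bound small subunit genes (26.3%) and 1 of 27 bound large subunit genes (3.70%) held it. TATAAA in that narrower window was held by 7 bound (15.2%) and 5 unbound members (10.9%), against 23.9% of all promoters.

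**Figure D5:**
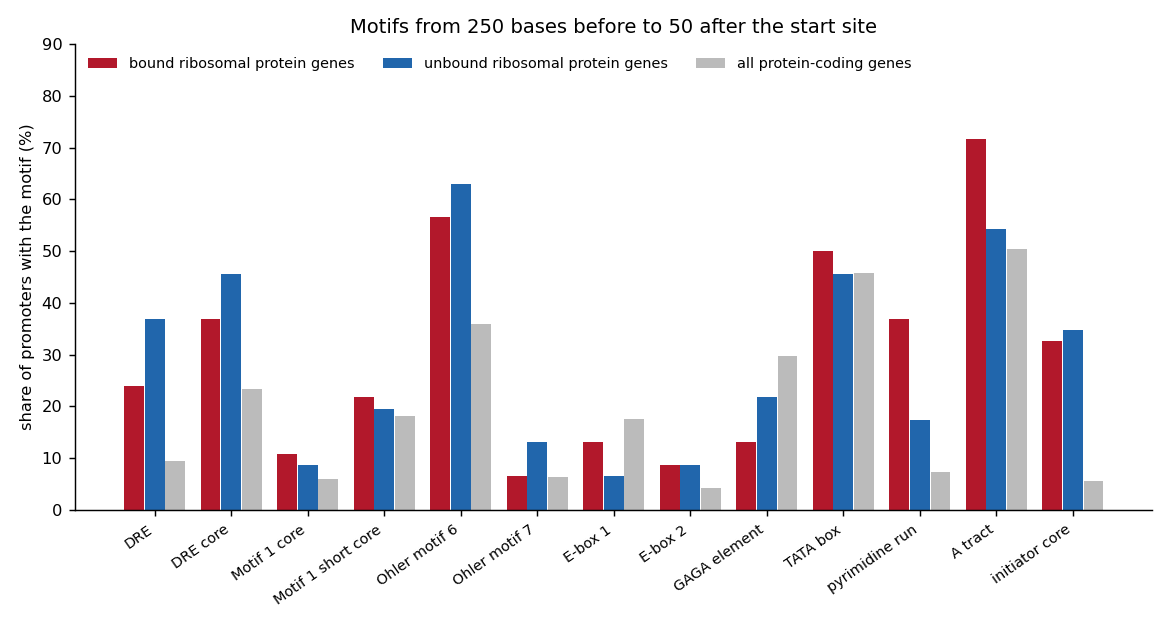
Share of promoters (%) that hold each motif from 250 bases before to 50 after the start site, for 46 bound and 46 unbound ribosomal protein genes and all 13968 protein-coding genes; E-box 1 is CAGCTG, E-box 2 is CACGTG, and the initiator core is CTTT at the start site. The bars of bound and unbound genes are close for most motifs. The bound bar stands clearly above the unbound one at the pyrimidine run (TTTCTTTT) and the A tract, and below it at the DRE.

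The TCT core CTTT with its C within 5 bases of the start site was held by 15 of 46 bound members (32.6%) and 16 of 46 unbound members (34.8%), against 5.63% of all genes. The share was thus close in bound and unbound members and several times that of all genes. With the C within 2 bases of the start site it was held by 6 bound members and 1 unbound member, against 2.20% of all genes. Bound members with CTTT at the start had a median signal of 99.2, and those without it a median of 89.6. Over bound and unbound members together the order was the opposite, with a median pooled signal of 50.4 with CTTT and 64.0 without it. RpL14, RpL34b and RpL28 are bound examples among the promoters printed above, and RpL13A, RpS3, RpL40 and RpS3A are unbound ones.

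Base composition differed between bound and unbound members. The 101 bases centred on the start site had a median GC content of 49.0% in bound members (33.7% to 62.4%) and 43.6% in unbound members (27.7% to 53.5%), against 45.5% in other bound genes and 43.6% in all genes. The 101 bases centred on the summit had a median of 50.5% in the peaks of bound members, against 33.7% in the other 1846 optimal peaks and 42.6% in the 97 of those that lay at most 50 bp from a start site. GC content thus moved with binding among the members; its part in the calls was not tested. In the same summit windows the DRE was present in 8 of 46 peaks of bound members (17.4%), against 14 of 1846 other peaks (0.758%), and TATAAA in 1 of 46 (2.17%), against 343 of 1846 (18.6%). Of those other peaks 1749 had a summit over 50 bp from any start site, so the windows differ in place. Neither motif was counted in the 97 near a start site alone, so these shares cannot be called particular to the members.

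Genes of other ribosome functions were bound to varying extents, beside the 9.5% of all genes. Of 32 genes for ribosome assembly and nucleolar factors (36 names listed), 8 were bound (25%), with eIF6, whose protein keeps the subunits apart, at a signal of 545, above every ribosomal protein gene. The others were Ns2 (149), l(3)72Dn (109), Nop56 (69.6), Nopp140 (64.2), Mybbp1A (57.8), nclb (57.3) and bys (49.6), of which Mybbp1A and bys share the peaks of RpL36 and RpS6. The summits of the 8 lay between 14 bp (Nopp140) and 995 bp (nclb) from the start site. Of 13 genes for RNA polymerase I and III (18 names listed), 2 were bound (15.4%), a share near that of all genes: Brf (119) and Bdp1 (88.3), which encode subunits of the initiation factor TFIIIB. Of 10 genes for regulators of ribosomal protein promoters (11 names listed), 5 were bound (50%): Dref (108), Trl (71.4), pzg (70.6), M1BP (70.4) and Max (56.7). Dref shares the peak of RpL13, and the summits of the 5 lay between 31 bp (pzg) and 720 bp (Max) from the start site. Of 2 ribosomal protein genes with other symbols (4 names listed), Rack1 was bound (89.3) and sta was not. No optimal summit lay within 5000 bp of dati itself, which had a pooled signal of 33.5.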

How the data were processed

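Peak lists of dati-GFP ChIP-seq from whole embryos (1 group, 2 replicates) were used on build dm6, per the labels. The authors deposited ranked lists for each replicate (107484 and 122195 places) and for the pooled reads (156658), and thresholded sets for each replicate (1208 and 877 peaks), the pooled reads (optimal, 1915) and the paired replicates (conservative, 1675). The deposited documentation names 1 control alignment file for both replicates. The aligner, like the peak caller, was not given in the sources used here. The signal value of each place is the authors' own, on a scale that is not stated. The deposited score is a scaled irreproducible discovery rate (IDR) with an upper limit of 1000, and the deposited ranked lists hold the IDR as a −log10 value. Summits come from the deposited offset column.

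Genes and start sites came from Ensembl release 115 of the same assembly, on 2L, 2R, 3L, 3R, X, 4 and Y. For each gene the highest signal at most 1000 bp from one of its start sites was taken, in the optimal set and in the ranked lists. Promoters were read from the Release 6 assembly of NCBI RefSeq at the gene's 5′ end. Python 3.11.15, numpy 2.4.6, pandas 2.3.3 and matplotlib 3.10.9 were used, and the scripts were tested on simulated data. No test was run across genes, because there was 1 group without counts, and library depth is unknown. Named genes were the 15 highest and 5 lowest bound members, the 10 highest unbound members, all paralogues and -like genes, the 5 bound members of largest replicate ratio, members with no place, the bound genes of the other ribosome lists, and dati. Genes named outside this rule, such as neighbouring genes, were chosen after their values were seen. Of the 10 highest unbound members, 2 are not reported here by name. The members, gene lists and motifs were chosen with earlier results of these data known.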

Additional observations from a re-analysis of the deposited data

How the results depend on the processing

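No paired analysis was possible because there was 1 group. The count of 46 bound members was 45 with a summit distance of 500 or 250 bp, 45 in the conservative set, 42 with the nearest start site only, and 47 with peak overlap or with the 89 absent pooled places added, which add RpL13A. With the 957 optimal peaks of highest signal it was 30 members, 11 of them small subunit genes, and 767 genes of all kinds, with a median member signal of 117; a shorter list gives fewer calls by construction. At 250 bp 807 of all genes were bound (5.78%), against 45 members (48.9%). Leaving out 1 replicate gave 28 to 33 bound members, 17 to 21 of the large and 11 to 12 of the small subunit, and 694 to 902 of all genes, with a median signal of 57.9 to 61.7 on those libraries' own scales and a median summit position of -29 to -28 bp. The nearest start site only gave a median signal of 88.1. The replicate ratio of 1.19 was 1.20 for places overlapping the optimal peak and 1.13 in the conservative set. CTTT with its C within 2 bases of the start site was held by 6 bound and 1 unbound members, so the near equal counts at 5 bases depend on that tolerance; the cause was not tested. At the start site nearest the summit, a setting added after seeing the data, it was held by 22 bound and 16 unbound members. Unbound members have no optimal summit to choose by and kept their most 5′ start site, so only the bound count could change. Of 48 motif counts under another window or start site, 40 stayed within 1.5 times and 8 did not. All 8 came with the window of 100 bases before to 50 after. The 40 include the counts of unbound members under the start site setting, which could not move. Library depth is unknown, and 11 bound members passed in neither replicate alone; the cause was not tested.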

Other observations

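Other letters stood out in the promoters of the bound members once the sequences had been read, so the counts below describe a choice made after seeing the data and were not tested. All 8-letter sequences on either strand were counted from 100 bases before to 50 after the start site, which gave 8971 different ones over the 92 members. The sequence with the largest excess of bound over unbound members was AACTATCG, which can overlap the 5′ part of the DRE. It was held by 13 of 46 bound members (28.3%) and 3 of 46 unbound members (6.52%), against 3.75% of the other bound genes and 2.73% of all promoters. It was held by 4 of 27 bound and 2 of 27 unbound large subunit genes, and by 9 of 19 bound and 1 of 19 unbound small subunit genes.

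The 4th in that order was GCAGCCAA, held by 8 of 46 bound members and 0 of 46 unbound members, against 8 of 1281 other bound genes (0.625%) and 0.895% of all promoters. The signals of the 8 genes ran from 258 in RpS27, the bound member of highest signal, to 49.6 in RpS6, the bound member of lowest signal. In windows of 101 bases at the summits it was present in 7 of 46 peaks of bound members (15.2%), against 8 of 1846 other optimal peaks (0.433%). The letters were picked for their presence in the promoters of these same members, so the share at their summits largely follows from that choice. Most of those other peaks lay away from start sites, so the windows differ in place. Its sites follow on the strand that reads GCAGCCAA, with 11 bases to each side and the 8 letters in capitals, from the Release 6 assembly (build dm6): RpS27 (chr3R:25247473-25247502, plus strand), RpS28b (chrX:9554579-9554608, plus strand), RpL34b (chr3R:9401242-9401271, minus strand), RpL28 (chr3L:3222973-3223002, minus strand), RpL27A (chr2L:4458312-4458341, minus strand), RpS21 (chr2L:2856073-2856102, plus strand), RpS19a (chrX:16637864-16637893, plus strand) and RpS6 (chrX:7901292-7901321, minus strand).
RpS27: tggggtaaatcGCAGCCAActtaacttgcc
RpS28b: gcctgcgcaacGCAGCCAActtcacgtcgc
RpL34b: cagtgggcagcGCAGCCAAgttcacgtcgt
RpL28: tttcggcaagcGCAGCCAActtcgcgctat
RpL27A: ctgctacaaccGCAGCCAActtcgcttctt
RpS21: ccacgcgcagcGCAGCCAActtcacgtcca
RpS19a: cactattaaccGCAGCCAActtcacgcgcc
RpS6: accctgcgctcGCAGCCAAcagacctccgc
The letters after the capitals begin with c or g followed by tt in 7 of the 8 sites, all but that of RpS6. The centre of the site lay 6.5 bp from the summit in RpS28b and RpL28 and 47.5 bp from it in RpL34b, the range over the 8 genes. The site lay on the strand of the gene in all of them but RpS27. Whether Dati or another protein recognises these letters was not tested.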
